A study of Rattus norvegicus with 64 samples.

Results

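FGF and HGF growth factor signalling in the reconstructed bladder wall was followed through 10 rat genes. They were the ligands Fgf1, Fgf2, Fgf7, Fgf10 and Fgf18, the receptors Fgfr1, Fgfr2 and Fgfr3, the ligand Hgf and its receptor Met. The genes were listed by symbol, and an array probe belonged to them where its RefSeq accession mapped to 1 of these symbols. All 10 were on the array, by 16 of 30367 gene probes, among 15715 genes that could be named. Fgfr2 had 4 probes, Fgfr1, Fgfr3 and Met had 2 each, and the other genes had 1. A gene with several probes was described by its brightest one, and the other probes are given where they differed in a call or its direction. Signals of different probes cannot be set against each other, so every comparison was made within a probe.

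The 8 groups were male Wistar rats that had all undergone hemicystectomy, the removal of part of the bladder, and augmentation with a graft of about 1 cm2. The graft was bladder acellular matrix (BAM), a bladder wall from which the cells have been washed out, used without cells or seeded with 10000000 adipose-derived stem cells (ASCs), and bladders were taken after 7, 30, 90 and 180 days. The ASCs came from retroperitoneal fat of 10-week-old male Wistar rats and were grown to the third passage in medium with 10 ng/ml of basic FGF, the protein encoded by Fgf2. Total RNA of the reconstructed wall of 8 rats per group was hybridized to 64 1-color arrays, 1 rat per array. The age of the operated rats was not given in the sources used here, and no unoperated bladder was analysed here, so no level can be set against normal tissue. RNA came from whole tissue, in which fewer cells of a type and less RNA per cell cannot be told apart.

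FGF ligands bind receptor tyrosine kinases encoded by Fgfr1 to Fgfr3 together with heparan sulfate, and the receptors signal through the adaptors Frs2 and Grb2 to the MAP kinase cascade, which switches on its own inhibitors of the Sprouty and Dusp families. Fgf7 and Fgf10 are made by stroma and act on an epithelial form of the receptor encoded by Fgfr2, and this pathway is known for its part in growth and repair of the urothelium, whereas Fgfr3 is strongly expressed in urothelium. HGF is secreted by stromal cells as an inactive precursor, is cleaved by serine proteases, and binds the receptor tyrosine kinase encoded by Met on epithelial cells.

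RefSeq start regions in assembly GRCr8 were at hand for 9 of the 10 genes, from 250 bases before to 50 bases after the annotated gene start. The 4 shown belong to the receptors Fgfr2 and Fgfr3, which differed between grafts at 7 days, and to Hgf and Met, the ligand and receptor that fell together between 30 and 90 days with ASCs. Capitals mark the GC box, searched as GGGCGG on both strands (CCGCCC where it lies on the other strand), and overlaps with other motifs were not searched for. The regions are chr1:194280865-194281164 on the minus strand for Fgfr2, chr14:81227160-81227459 on the minus strand for Fgfr3, chr4:19700418-19700717 on the minus strand for Hgf and chr4:46784496-46784795 on the plus strand for Met, each written in the direction of the gene.
Fgfr2: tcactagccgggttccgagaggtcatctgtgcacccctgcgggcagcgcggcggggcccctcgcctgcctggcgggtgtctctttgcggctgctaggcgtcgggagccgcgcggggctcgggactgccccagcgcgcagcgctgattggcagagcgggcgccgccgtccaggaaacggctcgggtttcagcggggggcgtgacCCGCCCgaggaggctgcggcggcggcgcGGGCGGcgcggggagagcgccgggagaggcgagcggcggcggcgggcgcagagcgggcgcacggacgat
Fgfr3: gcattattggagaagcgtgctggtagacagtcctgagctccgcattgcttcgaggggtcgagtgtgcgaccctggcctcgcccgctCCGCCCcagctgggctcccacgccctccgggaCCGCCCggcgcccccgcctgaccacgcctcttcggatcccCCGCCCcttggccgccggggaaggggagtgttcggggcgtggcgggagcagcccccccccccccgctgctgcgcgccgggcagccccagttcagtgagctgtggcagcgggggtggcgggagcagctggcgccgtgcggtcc
Hgf: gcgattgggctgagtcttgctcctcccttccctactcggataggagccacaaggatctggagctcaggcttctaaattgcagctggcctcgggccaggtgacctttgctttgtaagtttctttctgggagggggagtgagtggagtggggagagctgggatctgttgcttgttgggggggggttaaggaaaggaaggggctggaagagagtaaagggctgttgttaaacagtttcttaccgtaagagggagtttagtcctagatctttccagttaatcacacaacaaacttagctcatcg
Met: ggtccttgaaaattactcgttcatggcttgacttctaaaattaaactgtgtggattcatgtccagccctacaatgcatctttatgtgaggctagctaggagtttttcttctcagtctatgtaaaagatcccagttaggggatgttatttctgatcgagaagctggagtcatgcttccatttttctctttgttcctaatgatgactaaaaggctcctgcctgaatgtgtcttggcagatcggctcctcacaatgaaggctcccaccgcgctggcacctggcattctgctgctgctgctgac
The GC box was found 2 times in the region of Fgfr2, 3 times in that of Fgfr3 and not in those of Hgf and Met, and 33.1% of 33469 rat regions of this length held it. Of the 300 bases, 77.7% were G or C for Fgfr2, 74.7% for Fgfr3, 51.3% for Hgf and 45.7% for Met, beside a median of 51.7% over all regions. The 50 bases after the annotated start of Met open with ATG, the letters of a start codon. Whether transcription starts in that region was not tested. These letters describe the regions and say nothing about which factors bind there.

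Signals are given on the log2 scale relative to the 75th percentile of their array, so that 1 unit is a 2-fold difference. A difference passed the test, and is written as a rise or a fall, where the adjusted p of limma over all probes was below 0.01 and the fold change above 1.5. The slides differed before any gene was compared. Each group lay on a slide of its own, which means that group and slide cannot be told apart, and all slides up to 30 days had a common scan date that differed from that of the later ones. The median local background of an array ranged from 42 to 52 up to 30 days and from 99 to 365.5 later on, and was highest with BAM at 90 days (321 to 365.5). The share of gene spots well above background was 73.3% to 95.6% on the earlier arrays and 35.5% to 64.6% on the later ones. The differences with ASCs against BAM had medians over all probes of -0.16, 0.11, -0.27 and 0.06 in the order of the days, and quantile normalization brought these medians to between -0.03 and 0.02. The numbers of probes called higher and lower with ASCs were 640 and 1707, 364 and 144, 1178 and 2613, and 728 and 13 in the same order. After quantile normalization these pairs were 649 and 679, 179 and 158, 1527 and 1524, and 619 and 265. From 30 to 90 days 10688 probes were called higher and 2883 lower with BAM, which became 3947 and 3718. Differences relative to the median of all probes are therefore given beside the called ones.

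**Figure D1:**
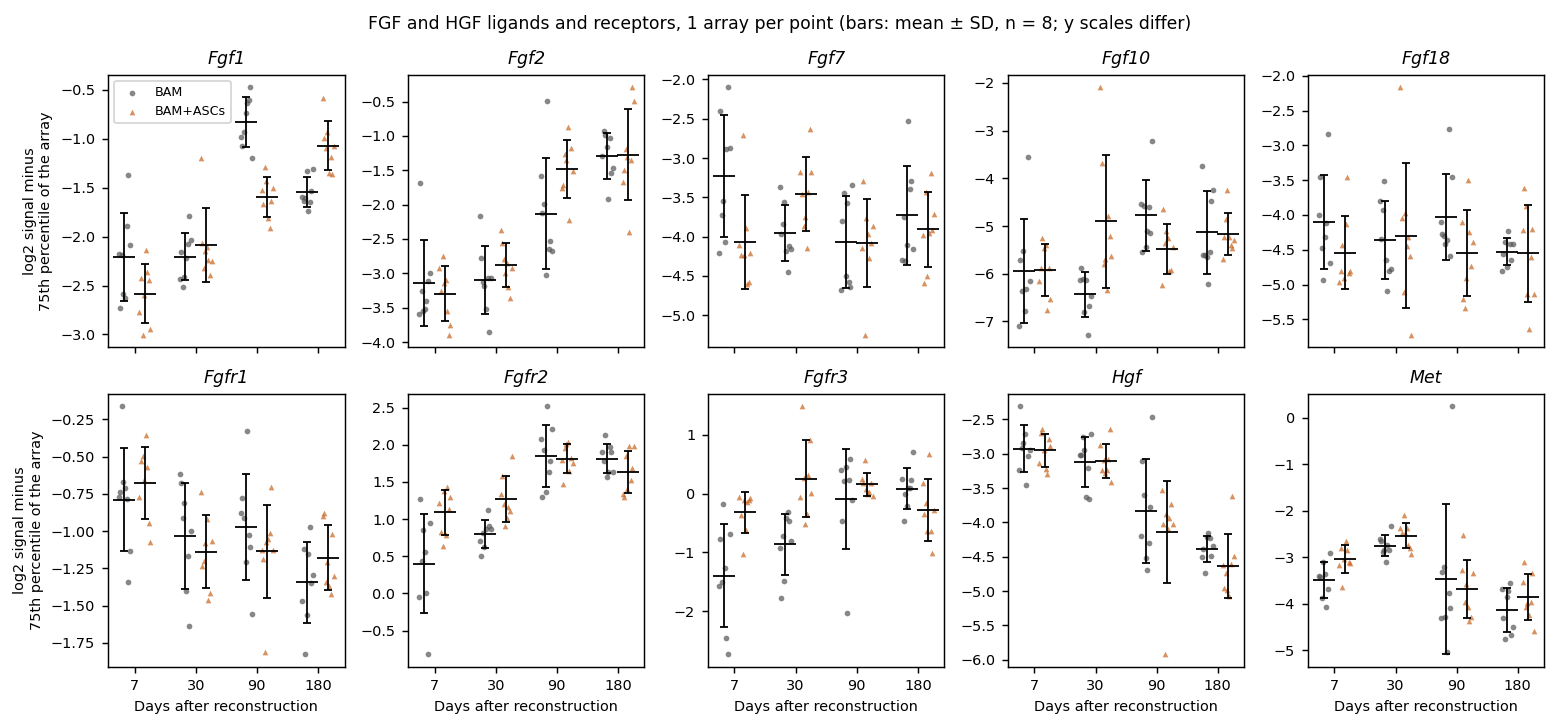
Normalized log2 signal (y axis, relative to the 75th percentile of the array) of the 10 genes by day (x axis), with 1 point per array, BAM as gray circles and BAM seeded with ASCs as orange triangles, and the mean ± SD of the 8 arrays of each group. Fgf2 and Fgfr2 lie higher at 90 and 180 days than at 7 and 30 days, Hgf lies lower, and the mean of Fgf1 with BAM at 90 days is the highest of the 8 group means.

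At 7 days the receptors Fgfr2 and Fgfr3 were higher in bladders reconstructed with BAM seeded with ASCs. The FGF receptor gene Fgfr3 lay at -1.03, -0.13 and -0.07 (lowest, median and highest of 8 arrays) with ASCs and at -2.73, -1.38 and -0.17 with BAM. The BAM arrays were the more spread, and 5 of the 8 ASCs arrays exceeded all BAM arrays. The means were -0.32 ± 0.35 (SD, n = 8) and -1.39 ± 0.87, a difference of 1.08 ± 0.29 (SE) or 2.11-fold, with an adjusted p of 0.00554. Against the median of all probes it was 1.24 higher. For Fgfr2, the receptor that in epithelium binds Fgf7 and Fgf10, the lowest, median and highest signals were 0.64, 1.18 and 1.44 with ASCs and -0.82, 0.50 and 1.27 with BAM. The groups overlapped, with 3 ASCs arrays above all BAM arrays. The difference in Fgfr2 was 0.69 ± 0.18 (SE) or 1.61-fold with an adjusted p of 0.00348, and 0.85 against the median of all probes. So 2 of 10 genes rose and none fell, where 2.11% of all probes were called higher and 5.62% lower at this day. The median difference of the 10 genes was 0.00.

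Both calls at 7 days lay close to the threshold, and each was lost when any 1 of several arrays was left out. For Fgfr2, the adjusted p was between 0.0105 and 0.0242, and the difference between 0.52 and 0.64, when ASCs replicate 6 or BAM replicate 1, 6 or 7 was left out. For Fgfr3, leaving out ASCs replicate 1, 4, 6, 7 or 8 or BAM replicate 1, 6 or 7 gave an adjusted p between 0.0105 and 0.0298 and a difference between 0.89 and 1.05. In a separate fit of the 7-day arrays the adjusted p was 0.0625 for Fgfr2 and 0.0265 for Fgfr3. Normexp background correction, an alternative way to subtract local background, gave 0.58 (adjusted p = 0.0104) for Fgfr2 and 0.87 (adjusted p = 0.0112) for Fgfr3, so that neither passed. With outlier spots kept, Fgfr2 differed by 0.48 (adjusted p = 0.142).

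Markers of the urothelium, the epithelium of the bladder, moved with these receptors. Of its 10 markers on the array, 7 passed the test as higher with ASCs at 7 days, and their summed signal, in units of the 75th percentile of the array, ranged from 44.7 to 154 with ASCs and from 2.47 to 109 with BAM. The mean of their log2 signals was 1.34 ± 0.54 (SD, n = 8) with ASCs and -0.46 ± 1.40 with BAM, and none of them was absent from either group. BAM replicates 7 and 6 had the lowest urothelial means of that group, -3.05 and -1.47, and the lowest signals of Fgfr3, -2.73 and -2.45. No smooth muscle marker of 8 passed, whereas 1 of 5 neutrophil and 2 of 6 endothelial markers were lower with ASCs. Of all probes, 2.11% were called higher and 5.62% lower at this day. The part of the cell makeup in the differences of Fgfr2 and Fgfr3 was not tested.

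Across single rats each of these receptors was related to more than 1 marker list. Deviations from the group means were compared over all 64 arrays, with labels permuted within groups, for 126 relations of which 90 were with marker lists, and 24 had an adjusted p below 0.05. Fgfr3 went with the urothelial markers at r = 0.77 (permutation p = 1e-05, the smallest that the permutations can give, adjusted p = 0.00063) and rho = 0.66 (adjusted p = 0.00063). The r was positive within 8 of 8 groups, from 0.35 to 0.92, and was 0.69 without the 2 arrays farthest from the median of the markers. Fgfr2 went with the smooth muscle markers at r = 0.69 (permutation p = 1e-05, adjusted p = 0.00063) and rho = 0.61 (permutation p = 2e-05, adjusted p = 0.00084), from 0.12 to 0.95 within the groups and 0.57 without the 2 farthest arrays. With the urothelial markers Fgfr2 had r = 0.47 (permutation p = 0.007, adjusted p = 0.04) and rho = 0.47 (permutation p = 0.00066, adjusted p = 0.0076), positive in 7 of 8 groups and 0.51 without the 2 farthest arrays. Fgfr2 also had r = 0.40 with the skeletal muscle markers. It ran opposite to the markers of T and B cells (r = -0.46), macrophages (-0.41), neutrophils (-0.40), endothelium (-0.40) and adipocytes (-0.36). Fgfr3 ran opposite to the endothelial markers (r = -0.39). These relations had permutation adjusted p of 0.03 or below. The 2 receptors went with each other at r = 0.38 (adjusted p = 0.076) and rho = 0.43 (adjusted p = 0.014). All these values share the array, the slide and the RNA sample.

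**Figure D2:**
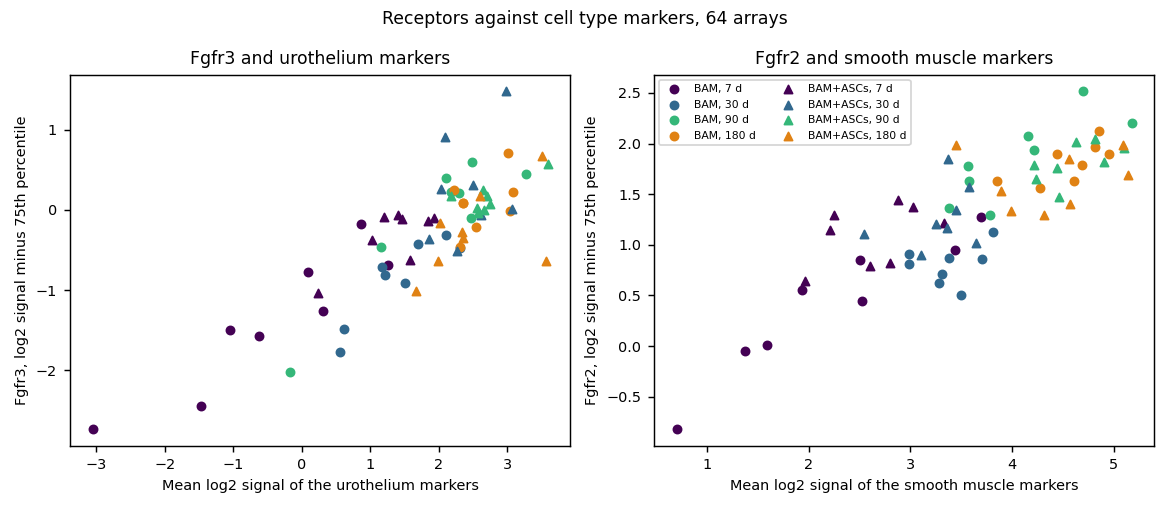
Fgfr3 against the mean log2 signal of the urothelium markers and Fgfr2 against that of the smooth muscle markers, with 1 point per array over all 64 arrays, colored by day and shaped by graft. Both clouds run upwards, and the 3 lowest Fgfr3 signals, 2 of BAM arrays at 7 days and 1 of a BAM array at 90 days, lie at low urothelial means.

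The probes of Fgfr2 did not move together. At 7 days the other 3 probes gave differences of 0.06 ± 0.17 (SE; A_64_P113700), 0.48 ± 0.26 (A_64_P064028) and -0.46 ± 0.22 (A_44_P454429), none of which passed. The last of these fell with ASCs at 90 days, by 0.95 ± 0.22 (adjusted p = 0.000763), where the brightest probe, A_43_P10225, differed by -0.04. Probe A_44_P454429 was well above background on 6 of 8 BAM and 4 of 8 ASCs arrays there. Which transcript form each probe reads was not known, since no probe sequences were used here, so the mean of the 4 probes at 7 days, 0.19 with an adjusted p of 0.316, mixes signals that differ. For Fgfr3 the second probe, A_64_P079584, gave 0.61 ± 0.29 at 7 days (adjusted p = 0.147), and it rose with ASCs at 30 days by 1.25 ± 0.29 (adjusted p = 0.00446) and at 90 days by 1.08 ± 0.29 (adjusted p = 0.0036). At 90 days it was well above background on 8 ASCs and 3 BAM arrays. Both Fgfr3 probes thus had positive differences at 7 and 30 days, but passed the test at different days.

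**Figure D3:**
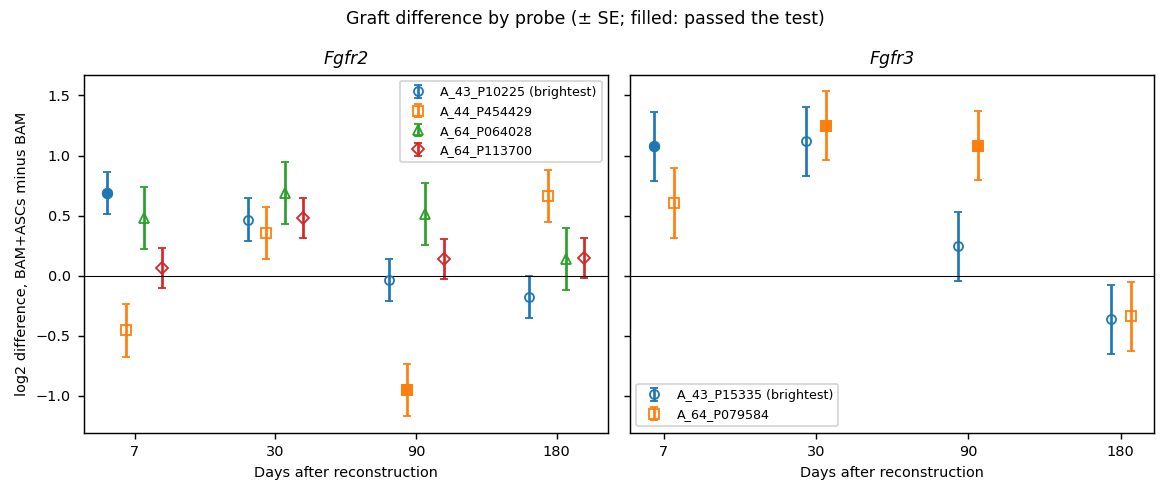
Log2 difference of BAM seeded with ASCs minus BAM (y axis, ± SE) by day (x axis) for the 4 probes of Fgfr2 and the 2 probes of Fgfr3, with filled symbols where the probe passed the test. The Fgfr2 probes lie on both sides of 0 at 7 days, and both Fgfr3 probes lie above 0 at 7 and 30 days.

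At 30 days no member gene passed the test between the grafts. By limma with an unadjusted p below 0.05 there were 3 such genes, and by the methods' analysis of variance none passed, where 1.67% of all probes were called. Fgfr3 came nearest, with -0.52, 0.14 and 1.48 (lowest, median and highest) with ASCs and -1.77, -0.76 and -0.31 with BAM, and 6 ASCs arrays above all BAM arrays. The difference was 1.12 ± 0.29 (SE) with an adjusted p of 0.0115. It passed at 1.03 after normexp background correction and at 1.16 when arrays were scaled on detected probes. Leaving out ASCs replicate 4 or 5 or BAM replicate 6 or 7 brought the adjusted p to between 0.00639 and 0.00956 at differences of 1.17 to 1.23. The urothelial markers had a mean of 2.43 ± 0.44 with ASCs and 1.40 ± 0.64 with BAM at that day, and 0 of 10 passed.

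Fgf10, the stromal ligand of the epithelial Fgfr2 form, was well above background on 7 of 8 ASCs arrays and 2 of 8 BAM arrays at 30 days. Its signals were -6.34, -5.42 and -2.08 (lowest, median and highest) with ASCs and -7.28, -6.30 and -5.87 with BAM. In 7 ASCs arrays the signal exceeded all BAM arrays, and the difference of 1.53 ± 0.40 (SE) had an adjusted p of 0.0134. Without ASCs replicate 3, 4 or 5 it was between 1.64 and 1.74 with an adjusted p between 0.00485 and 0.00941. Since 6 of the 8 BAM arrays were not well above background, these differences rest in part on values near the background. Over all 64 arrays Fgf10 was not well above background on 46.

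At 90 days Fgf1, the ligand that binds all FGF receptors, was lower with ASCs. Its signal lay at -1.92, -1.58 and -1.29 (lowest, median and highest of 8 arrays) with ASCs and at -1.20, -0.83 and -0.47 with BAM. The groups did not overlap. The means were -1.60 ± 0.20 (SD) and -0.83 ± 0.25, and Fgf1 fell by 0.77 ± 0.15 (SE) on the log2 scale, 1.70-fold, with an adjusted p of 4.86e-05. Against the median of all probes it was -0.50. This was 1 of 10 genes, where 8.6% of all probes were called lower and 3.88% higher. The median difference of the 10 genes was -0.19. None of the other member genes passed by its brightest probe.

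Over time Fgf1 took different courses with the grafts. Its means were -2.21 ± 0.45 (SD, n = 8), -2.20 ± 0.24, -0.83 ± 0.25 and -1.55 ± 0.15 at 7, 30, 90 and 180 days with BAM, and -2.58 ± 0.30, -2.09 ± 0.38, -1.60 ± 0.20 and -1.07 ± 0.25 with ASCs. With BAM it rose from 30 to 90 days by 1.38 ± 0.15 (SE; adjusted p = 9.46e-12) and fell from 90 to 180 days by 0.72 ± 0.15 (adjusted p = 0.000114), and in neither case did the groups overlap. Against the median of all probes these were 1.08 and -0.48. With ASCs the differences between the same days were 0.49 (adjusted p = 0.00464, with a fold below the threshold) and 0.53 (adjusted p = 0.0102), and at 180 days the ASCs arrays exceeded the BAM arrays by 0.48 ± 0.15 (adjusted p = 0.0404). Without ASCs replicate 1 of 30 days the difference from 30 to 90 days was 0.62, which passed. The comparisons at 90 days and along the BAM series share the 8 BAM arrays of 90 days.

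Ordered by mean, Fgf1 was highest with BAM at 90 days, followed by ASCs at 180, BAM at 180, ASCs at 90, ASCs at 30, BAM at 30, BAM at 7 and ASCs at 7 days. Of these steps, those from the second to the third and from the fourth to the fifth place, and no others, exceeded the larger SD of the neighbors. The order also followed the slides. BAM at 90 days, where Fgf1 was highest, had the highest local background, with a median of 342.5 over its arrays, and the 4 groups of 7 and 30 days, with backgrounds near 50, had the 4 lowest means. After normexp background correction the differences of Fgf1 were -0.65 at 90 days, 1.23 from 30 to 90 days and -0.59 from 90 to 180 days with BAM, and all 3 still passed. The part of the background in these differences was not tested. Fgf1 was not related within the groups to any marker list at an adjusted p below 0.05, and it ran opposite to Hgf at r = -0.38 (permutation p = 0.00084, adjusted p = 0.011) and rho = -0.39 (permutation p = 0.0022, adjusted p = 0.017), with r = -0.32 without the 2 farthest arrays.

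**Figure D4:**
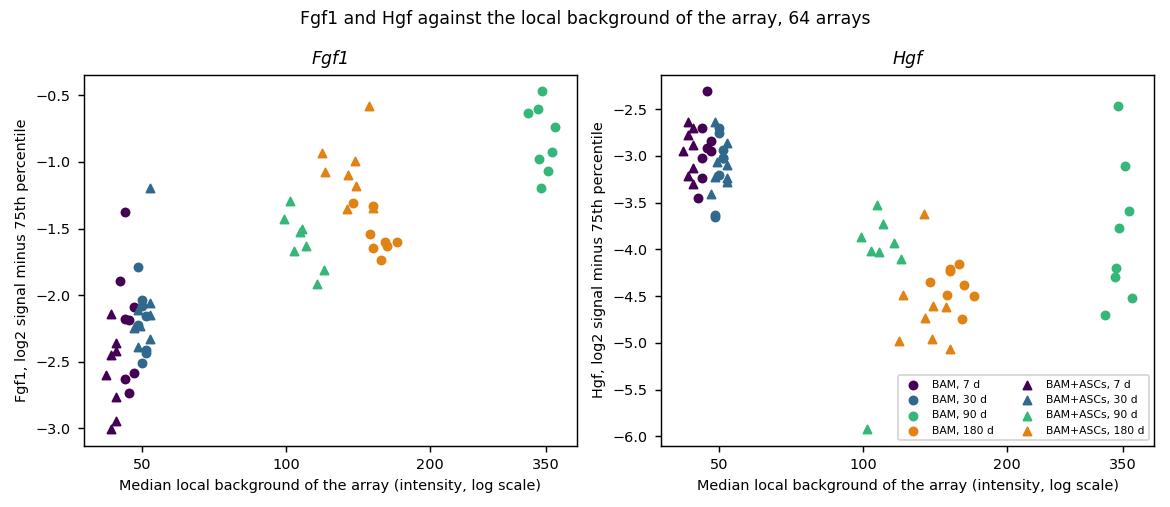
Normalized log2 signal of Fgf1 and of Hgf (y axes) against the median local background of the array (x axis, log scale), with 1 point per array over all 64 arrays, colored by day and shaped by graft. The BAM arrays of 90 days stand alone between 321 and 365.5 with the highest Fgf1 mean, and the group means of Hgf are lower on the slides with a background of 99 or more.

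Between 30 and 90 days 5 genes passed with BAM and 3 with ASCs, more than in any other comparison, but at a high background of calls. With BAM, Fgf1, Fgf2, Fgf10 and Fgfr2 were called higher and Hgf lower, where 35.2% of all probes were called higher and 9.49% lower. With ASCs, Fgf2 was called higher and Hgf and Met lower, where 17.8% and 10.3% were. The median difference of the 10 genes was 0.55 with BAM and -0.18 with ASCs, beside 0.30 and 0.11 over all probes. The scan date changed between these days for both grafts, so that time and scan cannot be told apart.

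Fgf2, which encodes basic FGF, was higher at 90 days with either graft. With ASCs its signals were -3.35, -2.88 and -2.37 (lowest, median and highest) at 30 days and -2.22, -1.43 and -0.86 at 90 days. These groups did not overlap, and Fgf2 rose by 1.40 ± 0.26 (SE), 2.63-fold, with an adjusted p of 1.68e-05. With BAM the signals were -3.85, -3.10 and -2.16 at 30 days and -3.02, -2.32 and -0.49 at 90 days. These groups overlapped, and the rise was 0.96 ± 0.26 with an adjusted p of 0.00132, which became 0.0158 in a separate fit. Against the median of all probes the rises were 1.29 with ASCs and 0.66 with BAM. At 180 days the means were -1.28 ± 0.66 (SD, n = 8) with ASCs and -1.29 ± 0.34 with BAM.

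At 90 days Fgf2 differed between grafts by 0.65 ± 0.26 (SE) with an adjusted p of 0.0492, below the call. Without BAM replicate 5, whose Fgf2 signal of -0.49 was the highest of its group, the value was 0.88 with an adjusted p of 0.00559. The difference from 90 to 180 days with BAM, 0.84 ± 0.26 (adjusted p = 0.0141), was 1.08 (adjusted p = 0.000619) without the same array and passed also without BAM replicate 1 of 90 days (0.92) or BAM replicate 5 of 180 days (0.93). Fgf2 went with the smooth muscle markers within groups at r = 0.56 (permutation p = 3e-05, adjusted p = 0.0013) and rho = 0.58 (permutation p = 1e-05, adjusted p = 0.00063), positive in 8 of 8 groups and 0.55 without the 2 farthest arrays. Relations of about this size were found with the markers of skeletal muscle (r = 0.55, permutation p = 9e-05, adjusted p = 0.0016; rho = 0.49), of Schwann cells and nerve (r = 0.50, permutation p = 0.00013, adjusted p = 0.002; rho = 0.49) and, in the opposite direction, of T and B cells (r = -0.55, permutation p = 7e-05, adjusted p = 0.0015; rho = -0.50). Without the 2 farthest arrays these were 0.43, 0.40 and -0.46. From 30 to 90 days 17.8% of all probes were called higher with ASCs and 35.2% with BAM. Over this step 4 of 6 nerve markers rose with ASCs and 2 of 6 with BAM. Over the same step 7 of 8 smooth muscle markers rose with ASCs and 5 of 8 with BAM. Their summed signal ranged from 88.7 to 147 at 30 days and from 218 to 392 at 90 days with ASCs, and from 106 to 165 and from 109 to 376 with BAM. The part of muscle and nerve in the rise of Fgf2 was not tested.

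Fgfr2 rose from 30 to 90 days with BAM, from 0.50, 0.84 and 1.13 (lowest, median and highest) to 1.29, 1.86 and 2.52, with no overlap. The rise was 1.05 ± 0.18 (SE), 2.07-fold, with an adjusted p of 8.47e-07, and 0.75 against the median of all probes. With ASCs the same step was 0.54 ± 0.18 with an adjusted p of 0.00898, and its 1.46-fold size lay below the threshold. Without ASCs replicate 2 or 8 of 30 days or replicate 2 of 90 days it passed, at 0.59, 0.63 and 0.59. The group means of Fgfr2 were 0.40 ± 0.67 (SD, n = 8), 0.80 ± 0.19, 1.85 ± 0.42 and 1.81 ± 0.20 at 7, 30, 90 and 180 days with BAM and 1.09 ± 0.30, 1.27 ± 0.31, 1.81 ± 0.19 and 1.63 ± 0.29 with ASCs. The 4 groups of 90 and 180 days were thus the 4 highest, and only the step below them, from ASCs at 180 days to ASCs at 30 days, exceeded the larger SD of the neighbors. Probe A_44_P454429 of Fgfr2 rose too, by 1.31 ± 0.22 (adjusted p = 6.86e-07) with BAM, and then fell by 1.21 ± 0.22 to 180 days (adjusted p = 1.72e-05), where the brightest probe stayed within its spread. The remaining Fgfr2 probes did not pass from 30 to 90 days with BAM. Probe A_64_P113700 had means of 0.20 ± 0.23 (SD, n = 8) and 0.75 ± 0.47. Probe A_64_P064028 had means of -4.48 ± 0.19 and -4.03 ± 0.73, and was well above background on 1 of 8 arrays at 90 days.

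Fgfr3 had means of -1.39 ± 0.87 (SD, n = 8), -0.86 ± 0.52, -0.09 ± 0.85 and 0.08 ± 0.35 at 7, 30, 90 and 180 days with BAM and -0.32 ± 0.35, 0.25 ± 0.66, 0.15 ± 0.20 and -0.28 ± 0.52 with ASCs. No step between adjacent days passed with either graft by this probe, whereas the second probe, A_64_P079584, rose with BAM from 90 to 180 days by 1.02 ± 0.29 (SE; adjusted p = 0.00589), where the brightest differed by 0.17. The step from 30 to 90 days with BAM was 0.77 ± 0.29 (SE; adjusted p = 0.0175), and without BAM replicate 5 of 90 days, whose Fgfr3 signal was -2.03 and whose urothelial mean was -0.18, it was 1.05 with an adjusted p of 0.000589. Between neighbors in the order of the 8 groups only the step from ASCs at 7 days to BAM at 30 days exceeded the larger SD. Fgfr1, the receptor of mesenchymal cells, passed in no comparison, and its group means stayed between -1.34 and -0.68. The second Fgfr1 probe, A_64_P064019, did not pass either, but went the other way from 90 to 180 days with BAM. Its means were -1.39 ± 0.51 (SD, n = 8) and -0.93 ± 0.25, where the brightest probe had -0.97 ± 0.35 and -1.34 ± 0.27.

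Fgf10 was also called higher from 30 to 90 days with BAM, but it was well above background on 2 of 8 arrays at 30 days and on none at 90 days. The lowest signal well above background had a median of -7.12 on the first slide and -5.22 on the second, and the mean of Fgf10 moved from -6.43 to -4.77. The 90-day group is therefore a bound, and no fold is given. The call was lost with normexp (adjusted p = 0.183) and after quantile normalization (adjusted p = 0.0172). Fgf7, a stromal growth factor of epithelial cells, passed in no comparison and was well above background on 40 of 64 arrays. At 7 days its signals were -4.60, -4.22 and -2.71 (lowest, median and highest) with ASCs and -4.21, -3.22 and -2.09 with BAM, a difference of -0.84 ± 0.28 (SE) with an adjusted p of 0.0279. Without ASCs replicate 3, which held the highest signal, the difference was -1.04 with an adjusted p of 0.0049, and after normexp correction it was -0.65 with an adjusted p of 0.00634. Fgf18 passed in no comparison either, and its group means lay between -4.55 and -4.03. Within groups Fgf18 went with the adipocyte markers at r = 0.56 (permutation p = 6e-05, adjusted p = 0.0015), positive in 8 of 8 groups. Fgf7 went with the fibroblast markers at r = 0.45 and with Hgf at r = 0.42 (permutation p = 0.0012, adjusted p = 0.012 for each). Without the 2 farthest arrays these were 0.51, 0.42 and 0.30. Fgf18 was well above background on 37 of 64 arrays, so part of these deviations lie near background.

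Hgf fell between 30 and 90 days with either graft. With ASCs its signals were -3.41, -3.16 and -2.64 (lowest, median and highest) at 30 days and -5.92, -3.97 and -3.52 at 90 days. The groups did not overlap, and Hgf fell by 1.04 ± 0.23 (SE), 2.05-fold, with an adjusted p of 0.000203. With BAM the signals were -3.66, -3.02 and -2.71 at 30 days and -4.70, -3.98 and -2.46 at 90 days. These groups overlapped, since 1 BAM array of 90 days exceeded all arrays of 30 days, and the fall was 0.71 ± 0.23 with an adjusted p of 0.00618. Against the median of all probes these differences were -1.14 and -1.01. At 180 days the means were -4.63 ± 0.46 (SD, n = 8) with ASCs and -4.38 ± 0.19 with BAM.

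The fall of Hgf went with the detection of its probe. Hgf was well above background on 8 of 8 arrays of every group at 7 and 30 days, on 4 ASCs and 1 BAM arrays at 90 days and on 0 and 1 at 180 days. With normexp the differences of Hgf were -0.26 with ASCs (adjusted p = 0.131) and -0.25 with BAM (adjusted p = 0.141), and after quantile normalization -0.80 (adjusted p = 0.0331) and -0.65 (adjusted p = 0.0727). The part of the background in the fall was not tested. The BAM call was lost when replicate 1, 2, 3, 4 or 8 of 30 days or replicate 1, 4, 5 or 6 of 90 days was left out, with differences between -0.70 and -0.59 and adjusted p between 0.0103 and 0.0249. Hgf passed in none of the 4 comparisons between grafts, and the step from 90 to 180 days with ASCs passed only without ASCs replicate 3 of 90 days, at -0.75 (adjusted p = 0.00882).

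Met, the HGF receptor, fell with ASCs from 30 to 90 days. Its signals were -2.93, -2.49 and -2.10 (lowest, median and highest) at 30 days and -4.38, -3.77 and -2.53 at 90 days, and 7 arrays of 90 days lay below all of 30 days. Met fell by 1.15 ± 0.34 (SE), 2.21-fold, with an adjusted p of 0.00439, and by 1.26 against the median of all probes. It was well above background on 8 of 8 arrays at 30 days and 3 of 8 at 90 days. With normexp the difference of Met was -0.47 (adjusted p = 0.104) and after quantile normalization -0.86 (adjusted p = 0.106), and without ASCs replicate 3 of 30 days or replicate 6 or 7 of 90 days the adjusted p was between 0.0102 and 0.0119 at differences of -1.09 to -1.05. The second Met probe, A_44_P318553, was called lower at 90 than at 30 days with ASCs (adjusted p = 2.84e-05). It was not well above background on any ASCs array of 90 days, so no fold is given.

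With BAM the Met difference from 30 to 90 days was -0.72 and did not pass, and this depended on 1 array. BAM replicate 8 of 90 days read 0.24 where the group's lowest was -5.04, and without it the difference was -1.25 with an adjusted p of 4.71e-06. That array also had the fewest gene spots well above background of all, 35.5%. Met was well above background on 2 of 8 BAM arrays at 90 days, so both differences rest in part on values near the background. From 7 to 30 days the second Met probe rose with BAM by 1.13 ± 0.30 (SE; adjusted p = 0.00344), while the brightest probe differed by 0.73 and passed in a separate fit of the groups (adjusted p = 0.00323). Within groups Hgf and Met ran together at r = 0.52 (permutation p = 0.0011, adjusted p = 0.012) and rho = 0.36 (permutation p = 0.0044, adjusted p = 0.027), which was r = 0.30 without the 2 farthest arrays. In single groups r ran from -0.56 to 0.89 and was positive in 6 of 8. Hgf was well above background on 38 and Met on 40 of the 64 arrays, so part of these deviations lie near background.

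Immune markers fell over the same step as Hgf and Met. Of 6 macrophage markers 2 fell with ASCs and 4 with BAM, and of 5 neutrophil markers 4 and 1. Of all probes, 10.3% were called lower with ASCs and 9.49% with BAM. The summed macrophage signal ranged from 13.7 to 35.7 at 30 days and from 1.35 to 14.2 at 90 days with ASCs, and from 26.6 to 51.6 and from 3.19 to 29.2 with BAM, and every macrophage marker was above background on at least 1 array of each group. The neutrophil marker Cxcr2 was not above background on any ASCs array of 90 days. Fibroblast markers fell too with BAM, 4 of 8, and with ASCs 1 fell and 1 rose. The collagen markers that fell with BAM were bright, with means of 5.55 to 5.66 at 30 days and 4.77 to 4.87 at 90 days. The log2 75th percentile used for scaling was 9.98 to 10.66 on the BAM arrays of 30 days. On those of 90 days it was 10.89 to 11.62, apart from 9.91 on replicate 8. Whether these collagen signals lay at the upper limit of the scanner, and the part of the scaling in their falls, was not tested. Within groups Hgf went with the fibroblast markers at r = 0.40 (permutation p = 0.0024, adjusted p = 0.018) and rho = 0.35 (permutation p = 0.0072, adjusted p = 0.038), with r = 0.43 without the 2 farthest arrays. With the macrophage markers it had r = 0.37 (permutation p = 0.053, adjusted p = 0.16) and r = -0.01 without the 2 farthest arrays, and with the neutrophil markers r = 0.14 (permutation p = 0.35, adjusted p = 0.53). Met was related to no marker list at an adjusted p below 0.05. The part of these cells in the fall of Hgf and Met was not tested.

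No gene passed in the 4 remaining comparisons. Between grafts at 180 days, 1 gene had an unadjusted p below 0.05 by limma, where 2.44% of all probes were called. From 7 to 30 days there were 3 such genes with BAM and 4 with ASCs, where 8.65% and 8.06% were called, and from 90 to 180 days with ASCs there were 2, where 4.14% were called. The methods' analysis of variance called 0 in each of these. From 90 to 180 days with BAM the fall of Fgf1 was the only call among the brightest probes, beside those of the Fgfr2 and Fgfr3 probes given above, where 4.17% of all probes were called lower and 5.21% higher.

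**Figure D5:**
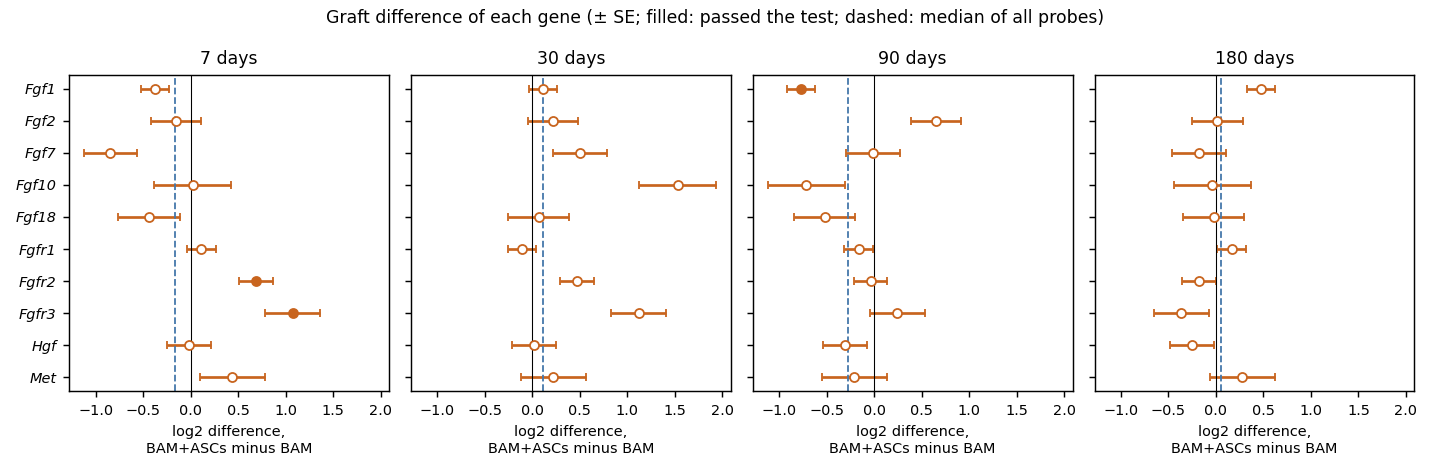
Log2 difference of BAM seeded with ASCs minus BAM (x axis, ± SE) for the 10 genes (y axis) at each of the 4 days, with filled points where the gene passed the test and a dashed line at the median of all probes. Filled points are Fgfr2 and Fgfr3 at 7 days and Fgf1 at 90 days.

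Whether the effect of the graft changed with time was tested for each gene with an F test over the 3 independent differences between days. Fgf1 (adjusted p = 1.49e-05) and Fgfr3 (adjusted p = 0.00711) passed, where 18.5% of all probes did. For Fgf1 the graft difference at 90 days was 0.88 lower than at 30 days (adjusted p = 0.00153), and at 180 days it was 1.25 higher than at 90 days (adjusted p = 5.75e-06). For Fgfr3 the graft differences were 1.08, 1.12, 0.24 and -0.36 at 7, 30, 90 and 180 days, and none of the steps between adjacent days passed by itself. The second Fgfr3 probe passed the F test as well (adjusted p = 0.00704), and its graft difference was 1.42 lower at 180 than at 90 days (adjusted p = 0.00901). Of the Fgfr2 probes A_44_P454429 passed (adjusted p = 9.15e-05). In the F test Fgf10 (adjusted p = 0.0113), Fgfr2 (0.012) and Fgf7 (0.0382) did not pass. Fgfr2 passed it after quantile normalization (adjusted p = 0.00714), with scaling on detected probes (0.00437) and with dim probes left out (0.00968).

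Genes around the members were taken from lists of the pathway. Of 10 genes of HGF activation, Spint1 and Spint2, membrane inhibitors of the proteases that activate HGF, rose with ASCs at 7 days by 1.76 ± 0.39 (SE; adjusted p = 0.000691) and 1.30 ± 0.26 (adjusted p = 0.000198). Mst1, a plasma protein related to HGF, fell by 2.06 ± 0.50 (adjusted p = 0.00187). All 3 were well above background on all 16 arrays and passed under each of the 4 other scalings. Both inhibitors are made by epithelia, and their rise stood beside that of the urothelial markers given above. No gene of this list passed between grafts at the later days, and its median difference was 0.12 at 7 days beside -0.16 over all probes.

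From 30 to 90 days Plaur passed as lower with both grafts, and Plat and Plau passed with ASCs. Plaur, the urokinase receptor, fell by 1.67 ± 0.24 with BAM and by 1.10 ± 0.24 with ASCs. Plat, the tissue-type activator, fell by 1.00 ± 0.20 with ASCs, and had fallen by 1.01 ± 0.20 from 7 to 30 days with BAM. These falls passed under each of the 4 other scalings. Plau, urokinase, which can cleave the HGF precursor, fell by 1.30 ± 0.35 with ASCs, but by 0.58 after normexp correction, and by 1.17 after quantile normalization, which did not pass. Spint2 rose with BAM from 7 to 30 days by 0.95 ± 0.26. Mst1r, the receptor of Mst1, was called higher by 1.39 ± 0.32 with BAM from 30 to 90 days, where 1 of 8 arrays of 90 days was well above background. In all, 3 of 10 fell and 0 rose with ASCs over this step, and 1 fell and 1 rose with BAM. Of all probes, 10.3% were called lower and 17.8% higher with ASCs, and 9.49% lower and 35.2% higher with BAM. The list's median was -0.31 with ASCs and 0.23 with BAM, the former becoming 0.00 after normexp correction and the latter -0.40 after quantile normalization.

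Among 14 feedback inhibitors and ERK-responsive targets, Dusp5 and Dusp6, phosphatases of ERK, and Etv5, a transcription factor induced by FGF signals, fell with both grafts from 30 to 90 days. With BAM they fell by 1.52 ± 0.21 (SE), 1.33 ± 0.17 and 1.00 ± 0.17, and with ASCs they fell by 1.10 ± 0.21, 1.11 ± 0.17 and 0.87 ± 0.17. These 6 calls were kept under each of the 4 other scalings, and the genes were well above background on at least 7 of 8 arrays of each group. Fosl1, an AP-1 subunit, fell by 2.46 ± 0.52 with ASCs, but was well above background on 1 of 8 arrays at 90 days and did not pass after normexp correction. Spred2, Etv4 and Il17rd were called higher with BAM, each well above background on at most 4 arrays of a group, and none of the 3 passed after normexp or quantile normalization, where Spred2 and Etv4 had negative differences in the latter. So 3 fell and 3 rose with BAM and 4 fell and 0 rose with ASCs, where 35.2% of all probes were called higher and 9.49% lower with BAM and 17.8% and 10.3% with ASCs. The medians of the list were -0.17 and -0.71, beside 0.30 and 0.11 over all probes.

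Spry4, a Sprouty inhibitor of receptor tyrosine kinase signals, was the target that differed most often between grafts. It was lower with ASCs at 7 days by 0.62 ± 0.18 (SE; adjusted p = 0.00844), a call that was lost under each of the 4 other scalings. It rose with ASCs from 90 to 180 days by 1.21 ± 0.18 and was then higher than with BAM by 0.84 ± 0.18 (adjusted p = 0.00082). The last call was lost after quantile normalization, at 0.70. Etv4 was higher with ASCs at 30 days by 1.80 ± 0.44, which did not pass after normexp (0.48) or quantile normalization (1.01). Etv1 and Il17rd were called lower at 90 days, with 0 of 8 ASCs arrays and at most 2 BAM arrays well above background.

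Of the 16 other FGF ligands on the array, 14 were called higher and 0 lower from 30 to 90 days with BAM, with a median difference of 2.32. Over this step 35.2% of all probes were called higher with BAM and 17.8% with ASCs. Each of the 14, from Fgf12 with 1.00 to Fgf14 with 3.36, was well above background on at most 3 arrays of either group. After normexp correction 4 were called and the list's median was 0.39, and after quantile normalization 3 were called with a median of 0.40. With ASCs 5 were called higher, with a median of 0.80, and 4 and 1 under these alternatives. Between grafts Fgf9 was called higher and Fgf16 lower with ASCs at 7 days, and Fgf14 and Fgf16 lower at 90 days, and none of these 4 calls was kept after normexp correction, where those of Fgf9 at 7 days and of both genes at 90 days turned sign. These are signals near the background of slides whose background differed, and no fold is drawn from them. Klotho (Kl), the co-receptor of hormone-like FGFs, was called higher with BAM from 30 to 90 days. It was well above background on 4 of 8 arrays of 90 days and none of 30 days, so no fold is given. Fgfrl1, a receptor without a kinase, rose from 30 to 90 days with ASCs by 0.73 ± 0.12, under each scaling.

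Among 9 heparan sulfate proteoglycans and FGF carriers, Sdc1, the epithelial syndecan, was higher with ASCs at 90 days by 1.16 ± 0.19 (SE; adjusted p = 1.38e-06) and was well above background on all arrays. With BAM it fell by 0.89 ± 0.19 from 30 to 90 days and rose by 1.01 ± 0.19 from 90 to 180 days, comparisons that share the BAM arrays of 90 days. After quantile normalization these 3 differences were 0.42, -0.43 and 0.40 and did not pass. The kinase gene Mapk3, encoding ERK1, did the same: 1.00 ± 0.15 between grafts at 90 days, -0.73 ± 0.15 and 0.78 ± 0.15 along the BAM series, with 0.12, -0.13 and 0.13 after quantile normalization. Fgfbp1, which releases FGFs from the matrix, was higher with ASCs at 30 days by 3.45 ± 0.68 (adjusted p = 0.000901), where 7 of 8 ASCs and 1 of 8 BAM arrays were well above background. It did not pass after normexp (1.15) or quantile normalization (2.27). Gpc3 rose by 1.84 ± 0.36 from 30 to 90 days with BAM and Gpc4 rose by 0.69 ± 0.19 from 90 to 180 days, both under each scaling.

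Of the 16 adaptors and MAP kinase genes, at most 4 passed in any comparison. These 4 passed from 30 to 90 days with BAM, where 35.2% of all probes were called higher and 9.49% lower. From 30 to 90 days with BAM, Grb2, the adaptor that recruits the cascade, fell by 0.87 ± 0.10 (SE) and Shc1 fell by 0.64 ± 0.19, both under each scaling. Map2k2 fell by 0.69 ± 0.08 from 90 to 180 days with BAM. At 7 days Shc1 was lower with ASCs by 0.66 ± 0.19, a call lost under each other scaling. From 30 to 90 days the calls of Gab2, lower with ASCs and not well above background at 90 days, and of Frs3, higher with BAM, were lost after normexp and quantile normalization.

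Over the 64 arrays, the genes whose deviations from the group means were most like those of a member were sought among 11146 named genes, for members well above background on at least 32 arrays. Fgfr3 was most like Arhgef16 (r = 0.89), Fgf2 most like Flnc (r = 0.91) and Hspb8 (r = 0.85), and Fgfr2 most like Fhl1 (r = 0.77) and Pard3 (r = 0.74). Fgfr1 came with Adam15 (r = 0.81) and Ctsf (r = 0.80), and Met with Rbpj (r = 0.77) and Zmpste24 (r = 0.75). Fgf1 came with Pax5 (r = 0.79), Hgf with Alox5ap (r = 0.67) and She (r = 0.65), Fgf7 with Sfrp1 (r = 0.64) and Prr7 (r = 0.63), and Fgf18 with Ninj2 (r = 0.63) and Grifin (r = 0.62). These correlations are descriptions over arrays that share slides within a group.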

How the data were processed

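RNA of the reconstructed bladder wall was measured on 64 1-color rat arrays, 8 for each of 8 groups. The authors deposited linear spot intensities of Feature Extraction 12.0.1.1, background-subtracted and detrended within each array and not normalized between arrays, with flags for spots well above background, saturated or outlying. A table of processed intensities deposited for the whole series was an alternative. It matched the scanner values apart from 3 arrays of the ASCs group of 7 days, whose median log2 ratio to them was -3.31 to -3.30 before scaling, and 1 BAM array of 180 days without 24873 spot values. Groups were taken from the sample titles.

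Control spots and outlying spots were left out, and spots of 1 probe were averaged. Each array was scaled to its 75th percentile, and log2 intensities were fitted by limma (version 3.58.1; R 4.3.3) as 8 group means with a common spread. Calls needed a Benjamini-Hochberg adjusted p below 0.01 over 30367 probes and a fold above 1.5, the thresholds of the study's methods. Probes were named through RefSeq accessions and the GRCr8 gene table, which named 18758 of 22372 probes with an accession. A gene was read from its brightest probe, and start regions came from RefSeq. Signals not well above background on any array of a group are bounds.

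All 10 genes were named with their values, as were, of each pathway list, up to 4 called genes in each direction with the largest change, and for each gene detected on at least 32 arrays the 2 genes with the highest correlation, apart from a few genes that are not reported here. The genes and lists were chosen with earlier results of these data known. Kl, Fgf9, Fgf12, Fgf14 and Fgf16 are further named with the counts they belong to. Relations within groups were tested with 100000 permutations.

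The alternatives were normexp background correction (offset 50) on median signals, quantile normalization, the 75th percentile over detected probes, the series table, leaving out dim probes, fitting only the groups compared, the replicate number as a block, the two-way analysis of variance of the methods, outlying spots kept, the mean of a gene's probes, and each array left out in turn. The fits were tested on simulated data. The replicate number was the array's position on the slide and did not pair the samples. The number of arrays limits the precision of every value. Computations used Python 3.11.15, numpy 2.4.6, pandas 2.3.3 and matplotlib 3.10.9.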

Additional observations from a re-analysis of the deposited data

Results flagged for a closer look

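In 11 of 80 sets of 8 arrays, 1 for each gene and group, the highest or lowest array stood apart from the others by Dixon's criterion, where chance marks about 1 in 20 sets. Among the ligands, Fgf1 stood at -1.19 in ASCs replicate 1 of 30 days, the array with the largest share of spots well above background, 95.6%. Fgf2 stood high at -1.68 in BAM replicate 2 and Fgf7 high at -2.71 in ASCs replicate 3, both of 7 days. Fgf10 stood high at -3.56 in BAM replicate 7 of 7 days and at -3.21 in BAM replicate 8 of 90 days.

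ASCs replicate 3 of 90 days was marked for 3 genes, with the lowest Fgfr1 signal of its group, -1.81, the highest Fgfr3 signal, 0.57, and the lowest Hgf signal, -5.92. Fgfr3 was low at -2.03 in BAM replicate 5 of 90 days, and Hgf was high at -3.62 in ASCs replicate 7 of 180 days. Met was high at 0.24 in BAM replicate 8 of 90 days, which had the smallest share of spots well above background, 35.5%.

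The difference between grafts varied over the days for Fgf1 (limma's F test, adjusted p = 1.49e-05) and for Fgfr3 (adjusted p = 0.00711).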

How the results depend on the processing

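The number of the 10 genes called changed as follows. Between grafts at 7 days, 2 were called, which became 1 with normexp correction (Fgf7 in place of Fgfr2 and Fgfr3), 0 in a separate fit, 1 with outlying spots kept and 0 with the mean of a gene's probes. At 30 days 0 were called, and 1, Fgfr3, with normexp correction, with scaling on detected probes, with dim probes left out and with the mean of probes. From 7 to 30 days with BAM, 0 became 1 in a separate fit and with the mean of probes. From 30 to 90 days with BAM, 5 became 3 with normexp correction, quantile normalization or a separate fit, and with ASCs 3 became 1 with normexp correction or quantile normalization. From 90 to 180 days with BAM, 1 became 2 with quantile normalization or without dim probes.

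With single arrays left out, the counts ranged from 0 to 3 at 7 days, 0 to 2 at 30 days, 1 to 2 at 90 days and 0 to 0 at 180 days between grafts. With BAM they ranged from 0 to 0, 4 to 6 and 1 to 2 over the steps between days, and with ASCs from 0 to 0, 2 to 4 and 0 to 1. The number of genes whose graft difference varied over the days ranged from 1 to 4.

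Samples with the same replicate number did not deviate together, with a median correlation of 0.009 over 224 pairs (-0.455 to 0.618, 55 over 0.1) beside 0.002 over 1568 pairs with different numbers. With the replicate number as a block, 1 gene in place of 2 varied over the days, since Fgfr3 had an adjusted p of 0.0124, and no other call changed.

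None of the 12 called differences changed sign under the 4 other scalings. Of the 88 uncalled ones, 25 did under at least 1 scaling and 3 were called. The causes of these changes were not tested. Differences of Fgf10 at all days, and of Hgf, Met, Fgf7 and Fgf18 at 90 and 180 days, rest on signals near background.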
